A study of Mus musculus with 9 samples.

Results

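The transcript levels of 38 genes of cholesterol and fatty acid synthesis were examined in sorted regulatory T cells (Tregs) of the mouse spleen. The genes were taken by symbol from a list chosen with earlier results of these data known. It holds enzymes from the start of the mevalonate pathway to cholesterol, the sterol-sensing regulators, and enzymes that make, lengthen and desaturate fatty acids. It also holds the acyl-CoA synthetases and a few genes of cholesterol efflux, fatty acid oxidation and triglyceride synthesis. All 38 had a row among the 23393 genes used. Of these, 37 passed the filter on low counts, as did 12219 genes in all. Fads2, a fatty acid desaturase gene, did not pass, with 0 to 0.491 CPM over the 9 libraries, and was not tested. RNA was sequenced in 9 libraries in 3 groups of 3, from a series on kidney scarring after loss of blood flow and on Tregs that carry ST2, the interleukin-33 receptor encoded by Il1rl1. The ST2KO group holds Tregs labelled by genotype as ST2 knockout, and the ST2-high and ST2-low groups hold wild-type Tregs with much or little ST2. The labels give spleen as the tissue of all 9 and name no sort gate, knockout allele, injury, treatment, strain, age or sex. They do not state whether the 3 libraries of a group came from separate animals, so p-values measure the spread between these libraries, which may be technical.

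Cells make cholesterol from acetyl-CoA through mevalonate, the isoprenoids, squalene and lanosterol, and they make saturated fatty acids from the same starting compound before elongating and desaturating them. Most of these enzymes are under the control of the SREBP transcription factors. SCAP escorts the SREBPs from the endoplasmic reticulum to the Golgi for cleavage when sterols are low, and the INSIG proteins hold them back when sterols are plentiful. T cells draw on both pathways for new membrane when they are activated and divide, and in mouse Tregs the mevalonate pathway has been tied to proliferation and suppressive function.

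Total counts per library lay between 11659659 and 43406680, so 1 count corresponded to between 0.0217 and 0.0818 CPM. Il1rl1 stood at 57.7, 61.4 and 83.6 CPM in ST2KO, 516, 421 and 547 CPM in ST2-high and 2.16, 3.59 and 2.11 CPM in ST2-low. As the exons behind the Il1rl1 counts in ST2KO are not known, they do not check the knockout label. Foxp3, which defines Tregs, was detected in every library, between 410.2 and 443 CPM in ST2KO, 532 and 622 CPM in ST2-high, and 445 and 478 CPM in ST2-low. Of the 7 Treg and T cell markers, 2 were higher and 2 lower in ST2KO against ST2-low, 1 higher and 4 lower in ST2KO against ST2-high, and 4 higher in ST2-high against ST2-low. Of all genes tested, 33.0% were higher and 29.3% lower, 31.9% and 32.6%, and 15.3% and 10.8%, in the same order. Ctla4 averaged 786 CPM in ST2KO, 2123 CPM in ST2-high and 1996 CPM in ST2-low, Tnfrsf18 99.6 CPM in ST2KO, 214 CPM in ST2-high and 147 CPM in ST2-low, and Il2ra 496 CPM in ST2KO, 449 CPM in ST2-high and 402 CPM in ST2-low. ST2-high replicate 3 stood somewhat apart from its group, with a chi-square per gene of 7.84 and 9.07 against the other ST2-high libraries whereas no other pair of libraries of 1 group exceeded 5.76. Each call that was lost or gained without this library is named with its gene. Ranges over a gene's alternatives, and the calls named as lost or gained, leave aside the alternative that asks for a minimum fold of 1.5. Levels are CPM, a library's counts scaled to a common total with TMM factors, which compare a gene between libraries but not one gene with another. Log2 fold changes come from edgeR's quasi-likelihood test, with an approximate standard error after ±. This standard error is the absolute log2 fold change divided by the square root of the test's F statistic, so it adds nothing independent of the p-value. Adjusted p-values are Benjamini-Hochberg values over all 12219 genes, called under 0.05. Where 2 values are given for ST2KO without naming the wild-type group, the first is against ST2-low and the second against ST2-high.

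The comparison of ST2KO with ST2-low sets knockout Tregs against wild-type Tregs with little receptor. The knockout Tregs had less transcript of Mvk and Cyp51 in the cholesterol pathway, of the sterol sensor Insig1, of the acyl-CoA synthetase Acsl3 and of the triglyceride enzyme Dgat1, each between 2.13-fold and 5.46-fold lower. They had more transcript of Mvd, Fdft1, Lss, Dhcr7 and Fads1, between 1.48-fold and 1.81-fold higher. Exons of Acsl3 overlap those of Utp14b on the same strand, so here and below the 2 genes' changes cannot be told apart. Of the 37 genes tested, 9 (24.3%) were higher, 18 (48.6%) were lower and 10 were not called. Among all genes tested in this comparison, 62.3% were called, 33.0% higher and 29.3% lower. The median log2 fold change was -0.18 over the 37 genes and 0.051 over all genes tested, and the median absolute log2 fold change was 0.41 over the 37 genes and 0.39 over all. In bulk RNA, fewer cells with a transcript and less of it per cell cannot be told apart.

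The next comparison, of ST2KO with ST2-high, asks how knockout Tregs differ from the wild-type cells that carry the receptor. Mvk, Cyp51, Insig1, Acsl3, Scd1 and Dgat1 were again lower in ST2KO, between 2.01-fold and 7.70-fold, and Lss, Fdft1, Abca1 and Sqle were between 1.48-fold and 1.78-fold higher. Of the 37 genes, 8 (21.6%) were higher, 18 (48.6%) were lower and 11 were not called, while of all genes tested 64.5% were called, 31.9% higher and 32.6% lower. The median log2 fold change was -0.18 over the 37 genes and 0.020 over all genes tested, and the median absolute values were 0.40 and 0.40. ST2KO libraries enter both comparisons, and each wild-type group also enters the comparison between them, so the 3 sets of values are not independent of each other.

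ST2-high against ST2-low compares wild-type Tregs that differ in the receptor, and here the differences were smaller. Of the 37 genes, 7 (18.9%) were higher in ST2-high, 8 (21.6%) were lower and 22 were not called, and no called gene differed by more than 1.71-fold. Of all genes tested 26.1% were called, 15.3% higher and 10.8% lower. The genes higher in ST2-high were Ebp, Elovl5, Dgat1, Nsdhl, Cpt1a, Acsl5 and Srebf1, and those lower were Acsl3, Abca1, Mvk, Sqle, Elovl6, Fasn, Insig1 and Abcg1. The median log2 fold change was -0.024 over the 37 genes and -0.0024 over all.

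Some lists of markers of other cells, and the cell division genes, differed between the groups, whereas other lists overlapped. Of 18 myeloid and dendritic markers, 17 had a row and 16 were tested. Of these, 15 were lower in ST2KO against ST2-low, 15 in ST2KO against ST2-high and 6 in ST2-high against ST2-low. Of all genes tested, 29.3%, 32.6% and 10.8% were lower in the same order of comparisons. Their summed level was 37.1 to 55.8 CPM in ST2KO, 138 to 144 CPM in ST2-high and 162 to 214 CPM in ST2-low, and no marker of this list with a row was at 0 in all libraries. B cell markers summed to 103 to 132 CPM in ST2KO, 131 to 164 CPM in ST2-high and 114 to 172 CPM in ST2-low, and plasma cell markers to 60.6 to 70.3 CPM in ST2KO, 77.8 to 120.0 CPM in ST2-high and 82.7 to 130.2 CPM in ST2-low. Neutrophil markers summed to 2.37 to 3.27 CPM in ST2KO, 8.41 to 11.9 CPM in ST2-high and 5.63 to 21.7 CPM in ST2-low. In ST2KO, 5 of 10 B cell markers were lower than in ST2-low and 6 than in ST2-high. So were 3 of 3 plasma cell and 2 of 3 neutrophil markers tested, against each group. Between the wild-type groups, 1 B cell marker was higher in ST2-high. NK and CD8 markers summed to 17.7 to 22.6 CPM in ST2KO, 19.5 to 19.6 CPM in ST2-high and 24.4 to 26.4 CPM in ST2-low. All 10 cell division genes were higher in ST2-high than ST2-low and lower in ST2KO than ST2-high, with summed levels of 270.4 to 277 CPM in ST2KO, 642 to 696 CPM in ST2-high and 265 to 281 CPM in ST2-low. In ST2KO against ST2-low, 1 of the 10 was higher and 1 lower. Of all genes tested, 15.3% were higher in ST2-high than ST2-low and 32.6% lower in ST2KO than ST2-high. In ST2KO against ST2-low, 33.0% of all genes were higher and 29.3% lower. The part of these cells and of division in the lipid gene results was not tested.

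**Figure D1:**
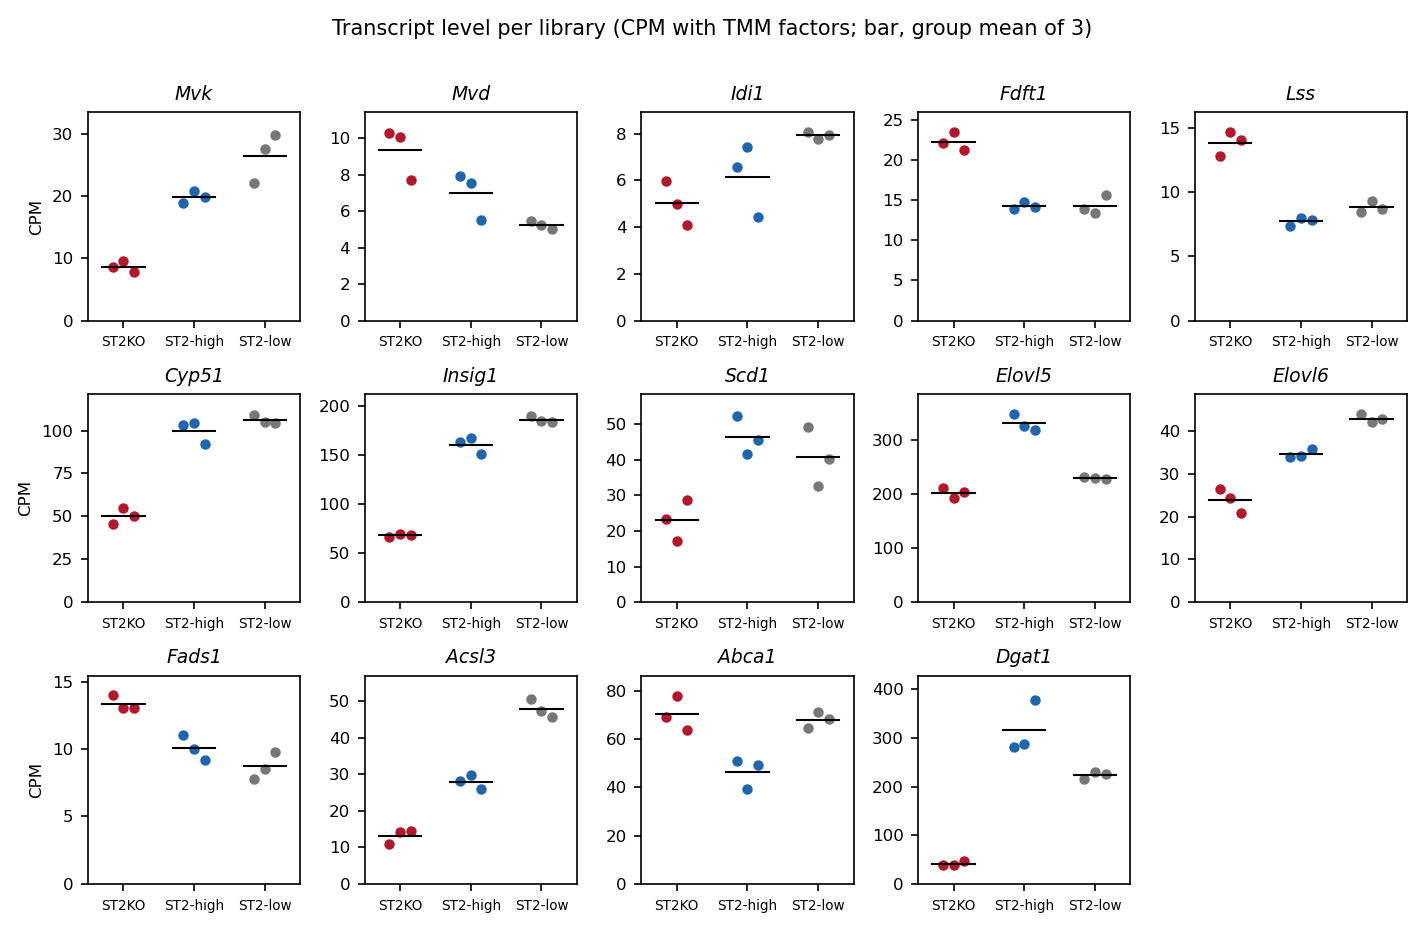
Each panel plots 1 gene, with its level in CPM on the vertical axis from 0 and the ST2KO, ST2-high and ST2-low groups on the horizontal axis. Points are the 3 libraries of a group and the bar is their mean. Mvk, Cyp51, Insig1, Scd1, Acsl3 and Dgat1 lie lowest in ST2KO, while Fdft1, Lss and Fads1 lie highest there.

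The early part of the cholesterol pathway, from acetyl-CoA units to squalene, showed both directions in ST2KO. Of its 7 genes, 2 were higher and 3 lower against ST2-low, 2 higher and 2 lower against ST2-high, and 1 lower in ST2-high against ST2-low. These counts, and those of the later groups of members, stand beside all-gene shares of 33.0% higher and 29.3% lower in ST2KO against ST2-low. The all-gene shares were 31.9% and 32.6% against ST2-high, and 15.3% and 10.8% in ST2-high against ST2-low. No difference from these shares was tested. Mvk, the kinase that phosphorylates mevalonate, had 8.55, 9.53 and 7.86 CPM in ST2KO, 18.9, 20.9 and 19.9 CPM in ST2-high and 22.1, 27.5 and 29.8 CPM in ST2-low. Every ST2KO library lay below every wild-type library, and the wild-type groups did not overlap either. Mvk was lower in ST2KO than ST2-low by a log2 fold change of -1.61 ± 0.11 (edgeR adjusted p = 2.17e-13) and than in ST2-high, at -1.19 ± 0.12 (edgeR adjusted p = 2.47e-10). It was also lower in ST2-high than ST2-low, at -0.42 ± 0.10 (edgeR adjusted p = 0.00297). Hmgcs1, which makes the HMG-CoA that enters the pathway, was lower in ST2KO to a smaller extent, at -0.32 ± 0.073 against ST2-low and -0.33 ± 0.073 against ST2-high (edgeR adjusted p = 0.000299 and 0.00027). Its level was 43.4 ± 3.90 CPM in ST2KO, 54.6 ± 3.94 CPM in ST2-high and 54.7 ± 3.22 CPM in ST2-low (mean ± SD, n = 3 each).

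Mvd, whose enzyme decarboxylates the phosphorylated mevalonate, moved the other way. It had 10.3, 10.1 and 7.69 CPM in ST2KO, 7.92, 7.54 and 5.54 CPM in ST2-high and 5.46, 5.24 and 5.03 CPM in ST2-low. All ST2KO libraries lay above all ST2-low libraries, and 1 ST2KO library lay within the range of ST2-high. The log2 fold change of Mvd was 0.86 ± 0.16 against ST2-low (edgeR adjusted p = 2.83e-05) and 0.42 ± 0.15 against ST2-high (edgeR adjusted p = 0.0171). The second call was lost without ST2KO replicate 1 (edgeR adjusted p = 0.116), ST2KO replicate 2 (0.0581) or ST2-high replicate 3 (0.132), with 0.00535 to 0.132 over its alternatives. ST2-high against ST2-low gave 0.43 ± 0.16 and missed the threshold (edgeR adjusted p = 0.0501), and it passed without ST2KO replicate 3 (0.0427) or ST2-high replicate 3 (0.00976), as well as with the replicate number as a block (0.0475) and with no filter (0.0458), with 0.00976 to 0.254 over its alternatives.

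Fdft1, squalene synthase, the enzyme that commits the pathway to sterols, stood at 22.1, 23.5 and 21.3 CPM in ST2KO, 13.9, 14.7 and 14.1 CPM in ST2-high and 13.9, 13.3 and 15.6 CPM in ST2-low. The ST2KO libraries were all above both wild-type groups, which overlapped. Fdft1 was higher in ST2KO by 0.64 ± 0.10 on the log2 scale against ST2-low (edgeR adjusted p = 1.79e-06) and by 0.65 ± 0.10 against ST2-high (edgeR adjusted p = 1.29e-06). Idi1, which isomerizes the first isoprenoid unit, had 5.97, 4.97 and 4.09 CPM in ST2KO, 6.56, 7.42 and 4.42 CPM in ST2-high and 8.05, 7.78 and 7.94 CPM in ST2-low. The ST2KO libraries lay below all ST2-low libraries and overlapped ST2-high. Its log2 fold change was -0.61 ± 0.18 against ST2-low (edgeR adjusted p = 0.00325) and -0.26 ± 0.18 against ST2-high (edgeR adjusted p = 0.211), where it passed without ST2-high replicate 3 (0.0259, with 0.0259 to 0.611 over its alternatives). Fdps, which builds farnesyl diphosphate, was not called in any comparison, at 14.4 ± 0.450 CPM in ST2KO, 14.4 ± 1.85 CPM in ST2-high and 15.6 ± 2.55 CPM in ST2-low (mean ± SD, n = 3 each). Pmvk, the second mevalonate kinase, had 4.66 ± 0.764 CPM in ST2KO, 6.001 ± 1.24 CPM in ST2-high and 6.04 ± 0.938 CPM in ST2-low and missed the threshold in ST2KO against both (edgeR adjusted p = 0.0595 and 0.0644). Against ST2-low Pmvk passed as lower without ST2KO replicate 2, ST2-high replicate 1 or ST2-high replicate 3 (edgeR adjusted p = 0.0353, 0.047 and 0.035). It also passed with the replicate number as a block (0.0444), DESeq2 size factors (0.0404), limma-voom (0.022), the 5 CPM filter (0.0465) and only the 6 libraries compared (0.0321), with 0.022 to 0.341 over its alternatives. Against ST2-high it passed without those libraries or ST2-low replicate 2 (0.0377, 0.0442, 0.0244 and 0.049), with the replicate block (0.0458) and with limma-voom (0.0269), over a range of 0.0244 to 0.36.

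From squalene to cholesterol, 4 of 8 genes were higher and 2 lower in ST2KO against ST2-low, and 3 were higher and 2 lower against ST2-high. Cyp51, the lanosterol demethylase, had 45.3, 54.7 and 50.4 CPM in ST2KO, 103, 104 and 92.2 CPM in ST2-high and 109, 105 and 105 CPM in ST2-low. The ST2KO libraries were about as far below either wild-type group, and ST2-high lay just below ST2-low without passing the test (edgeR adjusted p = 0.342). Cyp51 was lower in ST2KO by a log2 fold change of -1.09 ± 0.066 against ST2-low (edgeR adjusted p = 7.42e-15) and -1.01 ± 0.066 against ST2-high (edgeR adjusted p = 4.73e-14). Lss, lanosterol synthase, which acts just before Cyp51, had 12.8, 14.6 and 13.99 CPM in ST2KO, 7.36, 8.001 and 7.78 CPM in ST2-high and 8.43, 9.32 and 8.64 CPM in ST2-low. Here the ST2KO libraries all lay above the wild-type ones. Its log2 fold change was 0.64 ± 0.12 against ST2-low (edgeR adjusted p = 4.43e-05) and 0.83 ± 0.12 against ST2-high (edgeR adjusted p = 9.19e-07).

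The remaining enzymes of the late pathway split as well. Sqle, squalene epoxidase, had 21.9 ± 3.61 CPM in ST2KO, 14.8 ± 1.81 CPM in ST2-high and 18.5 ± 1.18 CPM in ST2-low (mean ± SD, n = 3 each), and was higher in ST2KO than ST2-high by 0.56 ± 0.11 (edgeR adjusted p = 7.09e-05). Against ST2-low it gave 0.24 ± 0.11 (edgeR adjusted p = 0.0578) and passed without ST2KO replicate 3 (0.016), with upper-quartile normalization (0.0163) and with no filter (0.045), over a range of 0.016 to 0.393. It was lower in ST2-high than ST2-low (-0.32 ± 0.11, edgeR adjusted p = 0.0366), a call lost without ST2-high replicate 1 or 3 or ST2-low replicate 2 or 3 (0.06, 0.135, 0.0658 and 0.155, with 0.0177 to 0.155 over its alternatives). Dhcr7, the reductase of the last step, was higher in ST2KO, by 0.56 ± 0.10 against ST2-low and 0.37 ± 0.10 against ST2-high (edgeR adjusted p = 2.39e-05 and 0.00252), with 23.3 ± 2.38 CPM in ST2KO, 17.9 ± 1.82 CPM in ST2-high and 15.7 ± 1.13 CPM in ST2-low (mean ± SD, n = 3 each). Hsd17b7, the 3-ketosteroid reductase of C4 demethylation, was lower, at -0.46 ± 0.11 and -0.58 ± 0.11 (edgeR adjusted p = 0.000692 and 3.43e-05), with 10.5 ± 0.443 CPM in ST2KO, 15.5 ± 0.450 CPM in ST2-high and 14.3 ± 0.930 CPM in ST2-low (mean ± SD, n = 3 each). Sc4mol, now called Msmo1, the methyl oxidase of the same reaction series, was not called in any comparison, at 13.4 ± 2.51 CPM in ST2KO, 14.7 ± 1.82 CPM in ST2-high and 14.9 ± 1.01 CPM in ST2-low (mean ± SD, n = 3 each).

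Ebp, the sterol isomerase, had 22.2 ± 1.92 CPM in ST2KO, 24.6 ± 3.96 CPM in ST2-high and 16.9 ± 2.97 CPM in ST2-low (mean ± SD, n = 3 each), and was higher than in ST2-low in both ST2KO (0.38 ± 0.12, edgeR adjusted p = 0.00838) and ST2-high (0.55 ± 0.12, edgeR adjusted p = 0.000977). The ST2KO call was lost without ST2-low replicate 2 or 3 (0.084 and 0.0524, with 0.000569 to 0.084 over its alternatives). Against ST2-high, Ebp was not called in ST2KO (edgeR adjusted p = 0.198) but passed as lower without ST2-high replicate 3 (0.0107, with 0.0107 to 0.492 over its alternatives). Nsdhl, the sterol dehydrogenase of C4 demethylation, was likewise higher than in ST2-low in ST2KO (0.28 ± 0.12, edgeR adjusted p = 0.0374) and in ST2-high (0.33 ± 0.12, edgeR adjusted p = 0.0395). The level of Nsdhl was 12.8 ± 1.21 CPM in ST2KO, 13.1 ± 1.16 CPM in ST2-high and 10.5 ± 0.226 CPM in ST2-low (mean ± SD, n = 3 each). Both calls were lost without single libraries and under other processing. In ST2KO against ST2-low the call was lost without ST2KO replicate 1 or 2 (0.0632 and 0.166), ST2-high replicate 1 or 3 (0.0669 and 0.0507) or any ST2-low library (0.09, 0.114 and 0.0584). It was also lost with DESeq2 size factors (0.0691), the DESeq2 test (0.0924), no filter (0.0572) and only the 6 libraries compared (0.0709), with 0.0107 to 0.166 over its alternatives. In ST2-high against ST2-low it was lost without ST2-high replicate 1 or 2 (0.115 and 0.146) or any ST2-low library (0.0992, 0.0959 and 0.0712), and with DESeq2 size factors (0.0549), the DESeq2 test (0.0739), no filter (0.0532) and the 5 CPM filter (0.0507), with 0.0195 to 0.146 over its alternatives.

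**Figure D2:**
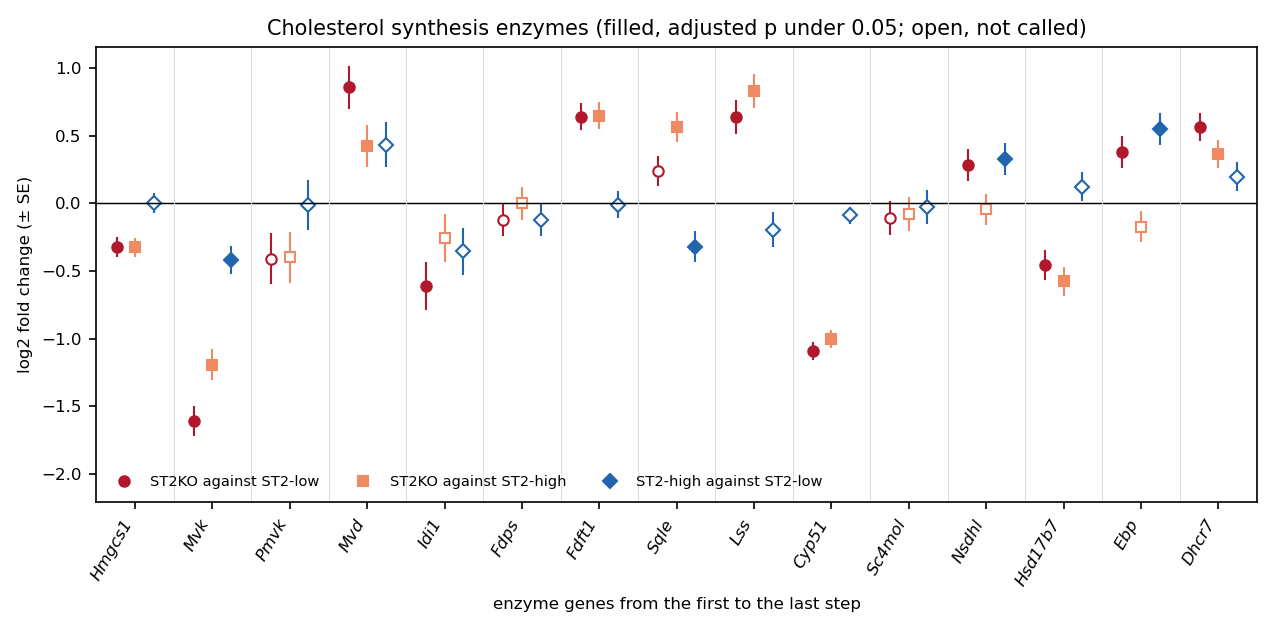
The log2 fold change of the 15 cholesterol synthesis genes, in pathway order, with bars of 1 standard error. Filled symbols passed edgeR's test at an adjusted p under 0.05 and open ones did not. In ST2KO, Mvk and Cyp51 lie lowest at between -1.01 and -1.61, while Mvd, Fdft1 and Lss lie between 0.42 and 0.86.

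The sequences just before the start sites of genes that changed in opposite directions are shown so that the letters searched for, which are known binding motifs of this pathway's factors, can be seen in place. RefSeq windows of GRCm38.p6, of 250 bases before to 50 bases after a start site, were found for 30 of the 38 genes, with 39 windows in all. Fdps, Fdft1, Sqle, Scd1, Scd2, Fads1, Abcg1 and Dgat1 were not matched. Both strands were searched for exact matches of the sterol regulatory element TCACCCCAC, to which SREBPs bind, its looser form TCACNCCAC, which includes the first, the CCAAT box CCAAT, bound by the SREBP partner NF-Y, and the E-box CACGTG. Capitals mark matches on either strand in the 250 bases before the start, read on the strand of the gene. The windows of Mvk at chr5:114444019-114444268 (plus strand), Cyp51 at chr5:4104698-4104947 (minus strand) and Insig1 at chr5:28071162-28071411 (plus strand) belong to genes lower in ST2KO, as does that of Hmgcs1 at chr13:119690101-119690350 (plus strand). Those of Mvd at chr8:122443423-122443672 (minus strand) and Lss at chr10:76531355-76531604 (plus strand) belong to genes higher in ST2KO.
Mvk: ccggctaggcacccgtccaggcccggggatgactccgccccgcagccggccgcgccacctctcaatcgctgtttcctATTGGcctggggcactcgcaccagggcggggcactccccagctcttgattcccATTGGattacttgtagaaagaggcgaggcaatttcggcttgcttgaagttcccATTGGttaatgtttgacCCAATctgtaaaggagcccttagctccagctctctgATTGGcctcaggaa
Cyp51: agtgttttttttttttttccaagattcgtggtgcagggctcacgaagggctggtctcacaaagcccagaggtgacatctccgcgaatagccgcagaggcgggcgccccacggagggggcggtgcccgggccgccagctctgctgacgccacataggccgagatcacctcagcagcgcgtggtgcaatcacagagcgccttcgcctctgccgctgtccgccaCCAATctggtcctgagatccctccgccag
Insig1: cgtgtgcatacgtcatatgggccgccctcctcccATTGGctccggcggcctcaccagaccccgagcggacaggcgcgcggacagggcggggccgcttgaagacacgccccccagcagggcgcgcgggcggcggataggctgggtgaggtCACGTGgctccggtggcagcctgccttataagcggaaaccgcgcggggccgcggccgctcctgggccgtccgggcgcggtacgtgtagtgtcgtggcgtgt
Hmgcs1: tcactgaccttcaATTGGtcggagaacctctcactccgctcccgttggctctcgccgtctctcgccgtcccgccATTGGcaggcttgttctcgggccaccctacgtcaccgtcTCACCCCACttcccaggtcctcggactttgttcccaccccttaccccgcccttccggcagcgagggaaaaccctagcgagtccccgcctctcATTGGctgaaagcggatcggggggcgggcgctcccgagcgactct
Mvd: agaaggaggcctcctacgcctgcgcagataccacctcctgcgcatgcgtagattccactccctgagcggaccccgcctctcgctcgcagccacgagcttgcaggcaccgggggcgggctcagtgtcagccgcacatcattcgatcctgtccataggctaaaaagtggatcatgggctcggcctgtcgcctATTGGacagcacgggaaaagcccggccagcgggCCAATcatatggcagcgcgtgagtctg
Lss: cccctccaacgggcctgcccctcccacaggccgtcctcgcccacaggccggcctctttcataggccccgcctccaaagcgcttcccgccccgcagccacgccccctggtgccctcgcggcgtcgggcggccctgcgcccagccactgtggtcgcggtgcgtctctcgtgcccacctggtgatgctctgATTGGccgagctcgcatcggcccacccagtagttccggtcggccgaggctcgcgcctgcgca

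The sterol regulatory element was found in 1 of the 30 genes, Hmgcs1, starting 137 bases before its start site, and the looser form added no gene. Over all 32851 windows, 0.551% held the first and 1.24% the looser form. A CCAAT box was found in 23 of the 30 genes, in 61.5% of their windows and in 37.4% of all windows, with 5 matches in the window of Mvk, 4 in that of Hmgcs1, 1 of them after the start site, 2 in that of Mvd and 1 each in those of Cyp51, Insig1 and Lss. An E-box was found in 6 of the 30, Abca1, Dhcr7, Elovl5, Hsd17b7, Insig1 and Scap, in 17.9% of their windows and in 7.15% of all windows. The genes with a CCAAT box or an E-box include both higher and lower ones in ST2KO, while Hmgcs1, alone in holding the sterol regulatory element, was lower. A match or its absence in this window describes letters only.

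Among the sterol-sensing genes, Insig1 changed most. It had 66.4, 69.6 and 68.1 CPM in ST2KO, 163, 167 and 151 CPM in ST2-high and 189.9, 184 and 184 CPM in ST2-low. The 3 groups did not overlap, and the ST2KO libraries lay close together well below the others. Insig1, whose product retains the SCAP and SREBP complex and whose own gene is a known SREBP target, was lower in ST2KO, at -1.45 ± 0.054 against ST2-low (edgeR adjusted p = 3.91e-20) and -1.24 ± 0.054 against ST2-high (edgeR adjusted p = 1.52e-18). It was lower in ST2-high than ST2-low, at -0.22 ± 0.051 (edgeR adjusted p = 0.00179). Its paralog Insig2 was not called in any comparison, at 10.3 ± 0.948 CPM in ST2KO, 9.86 ± 1.22 CPM in ST2-high and 10.1 ± 0.668 CPM in ST2-low (mean ± SD, n = 3 each).

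The SREBP genes themselves were lower in ST2KO by less. Srebf1, the factor of fatty acid synthesis genes, had 81.6 ± 3.72 CPM in ST2KO, 114 ± 5.82 CPM in ST2-high and 103 ± 6.93 CPM in ST2-low (mean ± SD, n = 3 each), with -0.33 ± 0.059 against ST2-low and -0.48 ± 0.059 against ST2-high (edgeR adjusted p = 1.9e-05 and 2.69e-08). Srebf2, the factor of cholesterol synthesis genes, had 279.8 ± 6.97 CPM in ST2KO, 322 ± 11.8 CPM in ST2-high and 324 ± 5.96 CPM in ST2-low, with -0.21 ± 0.050 and -0.20 ± 0.050 (edgeR adjusted p = 0.000458 and 0.000759). Scap was not called in any comparison, between 86.3 and 90.8 CPM in ST2KO, 82.7 and 94.5 CPM in ST2-high, and 80.0 and 85.0 CPM in ST2-low. With upper-quartile normalization it passed as higher in ST2KO than ST2-low (edgeR adjusted p = 0.00778, with 0.00778 to 0.327 over its alternatives). In ST2-high against ST2-low Srebf1 was called slightly higher, at 0.15 ± 0.058 (edgeR adjusted p = 0.0495). That call was lost without ST2KO replicate 1 or 2 (0.0594 and 0.0559), ST2-high replicate 1 or 3 (0.0883 and 0.165) or ST2-low replicate 2 or 3 (0.253 and 0.159). It was also lost with DESeq2 size factors (0.103), upper-quartile normalization (0.0622), the DESeq2 test (0.143), the 5 CPM filter (0.106), only the 6 libraries compared (0.0581) and Rn45s left out (0.0625), with 0.0177 to 0.253 over its alternatives.

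Of the enzymes that make palmitate, Fasn and Acly were lower in ST2KO and Acaca was not called. Fasn, the fatty acid synthase, had 258 ± 11.3 CPM in ST2KO, 329 ± 13.99 CPM in ST2-high and 384 ± 1.34 CPM in ST2-low (mean ± SD, n = 3 each), and no library of one group lay within the range of another. Its log2 fold change was -0.57 ± 0.051 in ST2KO against ST2-low, -0.35 ± 0.051 against ST2-high and -0.22 ± 0.051 in ST2-high against ST2-low (edgeR adjusted p = 4.28e-11, 5.81e-07 and 0.00124). Acly, which makes cytosolic acetyl-CoA from citrate, was lower, at -0.19 ± 0.051 and -0.17 ± 0.051 in ST2KO (edgeR adjusted p = 0.00174 against ST2-low and 0.00529 against ST2-high), with 217 ± 10.4 CPM in ST2KO, 244 ± 2.21 CPM in ST2-high and 248 ± 8.29 CPM in ST2-low (mean ± SD, n = 3 each). With upper-quartile normalization the second of these was not called (edgeR adjusted p = 0.127, with 0.000943 to 0.127 over its alternatives). Acaca, acetyl-CoA carboxylase, had 47.1 ± 3.43 CPM in ST2KO, 43.8 ± 3.30 CPM in ST2-high and 48.1 ± 2.84 CPM in ST2-low (mean ± SD, n = 3 each), and passed as higher in ST2KO than ST2-high with upper-quartile normalization alone (edgeR adjusted p = 0.031, with 0.031 to 0.631 over its alternatives).

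Desaturases and elongases went in both directions, with 2 of 6 tested genes higher and 3 lower in ST2KO against each wild-type group. Scd1, the stearoyl-CoA desaturase that makes oleate, had 23.3, 17.2 and 28.6 CPM in ST2KO, 52.3, 41.7 and 45.4 CPM in ST2-high and 49.2, 32.8 and 40.2 CPM in ST2-low. The ST2KO libraries lay below all others, with a wide spread in every group. Scd1 was lower in ST2KO, at -0.83 ± 0.21 against ST2-low (edgeR adjusted p = 0.011) and -1.03 ± 0.21 against ST2-high (edgeR adjusted p = 0.00364). Its close copy Scd2 was higher in ST2KO, by 0.15 ± 0.061 and 0.25 ± 0.061 (edgeR adjusted p = 0.0321 and 0.000655), and how reads that match both were counted is not given. The level of Scd2 was 93.1 ± 4.73 CPM in ST2KO, 77.9 ± 0.782 CPM in ST2-high and 83.6 ± 6.76 CPM in ST2-low (mean ± SD, n = 3 each). The call of Scd2 against ST2-low was lost without ST2KO replicate 2 or 3 (0.0958 and 0.104), ST2-high replicate 1 or 3 (0.0908 and 0.0591) or ST2-low replicate 2 or 3 (0.303 and 0.142), and with DESeq2 size factors (0.108), the DESeq2 test (0.145), the 5 CPM filter (0.0548) and only the 6 libraries compared (0.0873), with 0.00236 to 0.303 over its alternatives. Fads1, the delta-5 desaturase of polyunsaturated fatty acids, had 13.98, 13.03 and 13.01 CPM in ST2KO, 11.1, 9.97 and 9.16 CPM in ST2-high and 7.78, 8.55 and 9.80 CPM in ST2-low. All ST2KO libraries lay above the wild-type libraries, which overlapped between groups. Fads1 was higher by 0.62 ± 0.13 against ST2-low (edgeR adjusted p = 8.38e-05) and by 0.40 ± 0.12 against ST2-high (edgeR adjusted p = 0.00525).

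Elovl6, which lengthens palmitate, had 26.5, 24.3 and 20.8 CPM in ST2KO, 33.97, 34.1 and 35.9 CPM in ST2-high and 43.9, 42.03 and 42.9 CPM in ST2-low. The groups did not overlap and stood in that order from low to high. Its log2 fold change was -0.82 ± 0.081 in ST2KO against ST2-low, -0.51 ± 0.082 against ST2-high and -0.31 ± 0.079 in ST2-high against ST2-low (edgeR adjusted p = 3.36e-10, 2.62e-06 and 0.00327). Elovl5, the elongase of polyunsaturated fatty acids, differed instead by its high level in ST2-high. It had 212, 192 and 204 CPM in ST2KO, 348, 327 and 317 CPM in ST2-high and 232, 230.2 and 228 CPM in ST2-low. ST2-high libraries lay far above the others, and ST2KO lay just under ST2-low without overlap. Elovl5 was lower in ST2KO than ST2-high, at -0.71 ± 0.052 (edgeR adjusted p = 5.45e-13) and higher in ST2-high than ST2-low by 0.52 ± 0.052 (edgeR adjusted p = 2.53e-09). Against ST2-low, Elovl5 was lower in ST2KO, at -0.18 ± 0.052 (edgeR adjusted p = 0.0032), a call lost with upper-quartile normalization (0.0563, with 6.71e-05 to 0.0563 over its alternatives). Elovl1, an elongase of saturated very long chains, was not called, at 21.3 ± 3.57 CPM in ST2KO, 22.7 ± 1.63 CPM in ST2-high and 19.1 ± 0.497 CPM in ST2-low (mean ± SD, n = 3 each). Without ST2KO replicate 3 it passed as higher in ST2KO than ST2-low (edgeR adjusted p = 0.0102, and 0.0305 with upper-quartile normalization, with 0.0102 to 0.617 over its alternatives) and in ST2-high against ST2-low (0.0468, with 0.0468 to 0.233).

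The acyl-CoA synthetases, which activate fatty acids, differed from each other. Acsl3, the form found on lipid droplets, had 10.8, 14.2 and 14.4 CPM in ST2KO, 28.1, 29.9 and 25.97 CPM in ST2-high and 50.7, 47.4 and 45.8 CPM in ST2-low. The 3 groups were fully separate, with ST2-high between the others. Acsl3 was lower in ST2KO, at -1.92 ± 0.10 against ST2-low (edgeR adjusted p = 1.36e-16) and -1.14 ± 0.10 against ST2-high (edgeR adjusted p = 3.6e-11), and lower in ST2-high than ST2-low, at -0.77 ± 0.089 (edgeR adjusted p = 6.24e-08). Exons of Acsl3 overlap those of Utp14b on the same strand in the GENCODE annotation of GRCm38, and how shared reads were counted is not given. Utp14b, a gene of ribosome assembly, gave log2 fold changes of -1.65, -0.99 and -0.66 in the same 3 comparisons, so a change of one of these genes cannot be told apart from a change of the other. Acsl4, which prefers arachidonate, was lower in ST2KO, at -0.49 ± 0.052 and -0.44 ± 0.052 (edgeR adjusted p = 2.57e-09 against ST2-low and 1.98e-08 against ST2-high), with 93.5 ± 3.76 CPM in ST2KO, 126 ± 2.21 CPM in ST2-high and 131 ± 3.07 CPM in ST2-low (mean ± SD, n = 3 each). Acsl5, a mitochondrial and reticular form, had 88.1 ± 2.604 CPM in ST2KO, 86.9 ± 4.203 CPM in ST2-high and 76.4 ± 1.498 CPM in ST2-low (mean ± SD, n = 3 each). It was higher than in ST2-low in ST2KO (0.21 ± 0.057, edgeR adjusted p = 0.00218) and in ST2-high (0.18 ± 0.057, edgeR adjusted p = 0.0153), the second call being lost without ST2-high replicate 2 or ST2-low replicate 1 (0.0938 and 0.0636, with 0.00721 to 0.0938 over its alternatives).

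In cholesterol efflux, Abca1, the transporter that loads lipid-poor apolipoprotein, was set apart by low levels in ST2-high. It had 69.1, 77.9 and 63.9 CPM in ST2KO, 50.7, 39.2 and 49.2 CPM in ST2-high and 64.4, 71.2 and 68.4 CPM in ST2-low. ST2-high lay below both other groups, which overlapped. Abca1 was higher in ST2KO than ST2-high by 0.60 ± 0.083 (edgeR adjusted p = 1.08e-06) and lower in ST2-high than ST2-low, at -0.55 ± 0.083 (edgeR adjusted p = 1.8e-05), with 0.050 ± 0.081 in ST2KO set beside ST2-low (edgeR adjusted p = 0.613). Abcg1, the transporter that passes cholesterol to high-density lipoprotein, was lower in ST2KO, at -0.44 ± 0.067 against ST2-low and -0.24 ± 0.067 against ST2-high (edgeR adjusted p = 4.38e-06 and 0.00335), with 153 ± 8.01 CPM in ST2KO, 181 ± 19.00 CPM in ST2-high and 208 ± 16.3 CPM in ST2-low (mean ± SD, n = 3 each). It was also lower in ST2-high than ST2-low (-0.20 ± 0.067, edgeR adjusted p = 0.029), a call lost without ST2-high replicate 2 or 3 or ST2-low replicate 1 (0.136, 0.151 and 0.181, with 0.00158 to 0.181 over its alternatives). Nr1h2, which encodes LXR beta, the oxysterol receptor that drives both transporters, was lower in ST2KO, at -0.55 ± 0.074 and -0.51 ± 0.074 (edgeR adjusted p = 4.79e-07 and 1.49e-06), at 70.1 ± 5.20 CPM in ST2KO, 99.99 ± 6.80 CPM in ST2-high and 103 ± 11.9 CPM in ST2-low (mean ± SD, n = 3 each).

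Dgat1, which joins the last acyl chain onto a triglyceride, showed the largest change of the 37 tested genes. It had 38.4, 38.99 and 47.1 CPM in ST2KO, 282, 287 and 379 CPM in ST2-high and 215, 231 and 225 CPM in ST2-low. The ST2KO libraries lay several-fold below all others, and ST2-high lay above ST2-low with replicate 3 highest. Dgat1 was lower in ST2KO, at -2.45 ± 0.13 on the log2 scale against ST2-low (5.46-fold, edgeR adjusted p = 2.65e-07) and -2.94 ± 0.13 against ST2-high (7.70-fold, edgeR adjusted p = 6.56e-08). It was higher in ST2-high than ST2-low by 0.50 ± 0.12 (edgeR adjusted p = 0.0146). Cpt1a, the gate of mitochondrial fatty acid oxidation, had 93.1 ± 4.85 CPM in ST2KO, 106 ± 6.66 CPM in ST2-high and 88.98 ± 6.67 CPM in ST2-low (mean ± SD, n = 3 each). It was higher in ST2-high than ST2-low (0.25 ± 0.062, edgeR adjusted p = 0.00279) and lower in ST2KO than ST2-high (-0.18 ± 0.062, edgeR adjusted p = 0.0113). The second call was lost without ST2KO replicate 2 or ST2-high replicate 2 (0.0783 and 0.055) and with upper-quartile normalization (0.139, with 0.00158 to 0.139 over its alternatives).

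**Figure D3:**
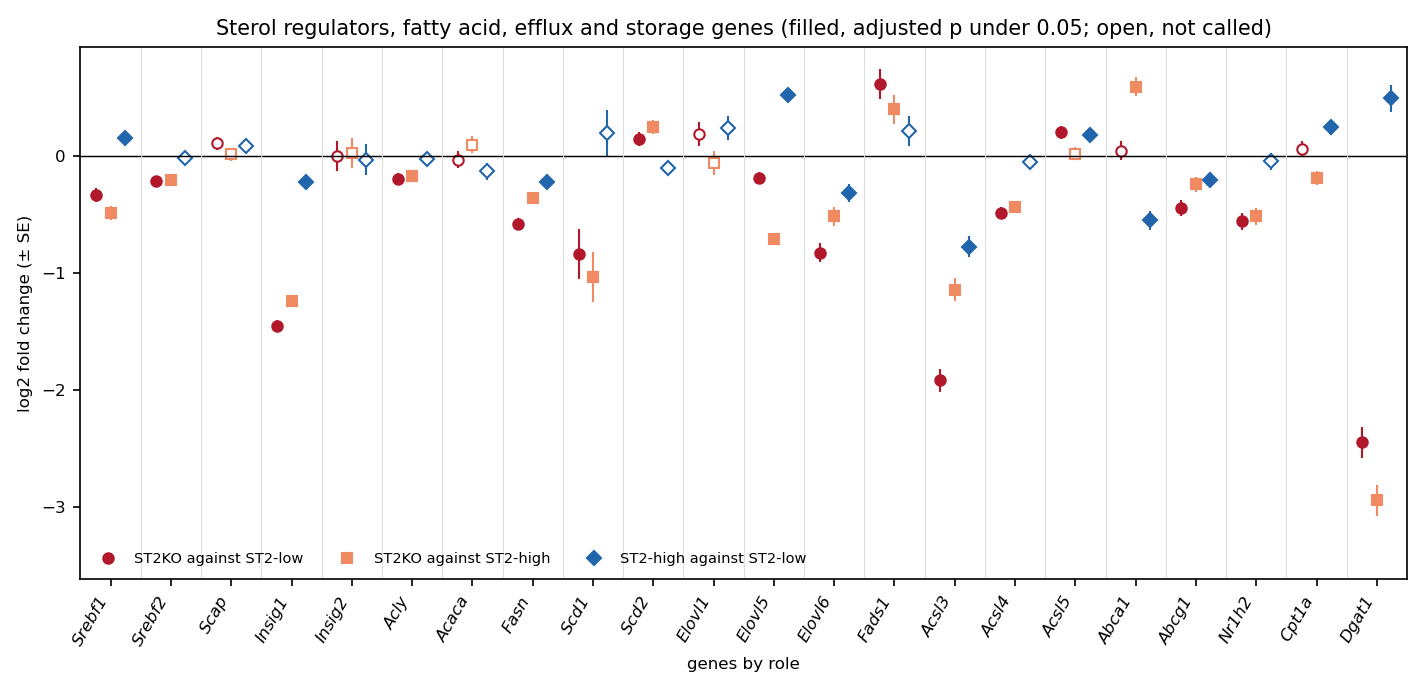
The log2 fold change of the other 22 tested genes, grouped by role, with bars of 1 standard error and filled symbols for genes past edgeR's adjusted p of 0.05. Dgat1 lies lowest at -2.45 and -2.94 in the ST2KO comparisons, followed by Acsl3 and Insig1, while between ST2-high and ST2-low Acsl3 lies at -0.77, Abca1 at -0.55, and Elovl5 and Dgat1 at 0.52 and 0.50.

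Across the 3 comparisons, 6 genes, Mvk, Insig1, Fasn, Elovl6, Acsl3 and Abcg1, were lower in ST2KO than in both wild-type groups and lower in ST2-high than ST2-low. A further 8 genes, Hmgcs1, Cyp51, Hsd17b7, Srebf2, Acly, Scd1, Acsl4 and Nr1h2, were lower in ST2KO than in both, with no call between the wild-type groups, and 3, Srebf1, Elovl5 and Dgat1, were lower in ST2KO than in both and higher in ST2-high than ST2-low. The 6 genes higher in ST2KO than in both, with no call between the wild-type groups, were Mvd, Fdft1, Lss, Dhcr7, Scd2 and Fads1. There were 7 genes called in no comparison, Pmvk, Fdps, Sc4mol, Scap, Insig2, Acaca and Elovl1. As shares of the 37 genes and of all 12219, the pattern lower in all 3 comparisons made up 16.2% and 3.65%, lower in ST2KO with no call between the wild-type groups 21.6% and 16.9%, lower in ST2KO with higher in ST2-high 8.11% and 4.08%, higher in ST2KO with no such call 16.2% and 21.1%, and no call 18.9% and 23.4%. No test was made of these shares, and the list was chosen with earlier results of these data known. The summed level of all 38 genes, to which genes with many counts add most, was 2336, 2325 and 2321 CPM in ST2KO, 3144, 3118 and 3202 CPM in ST2-high, and 3100, 3070.3 and 3109 CPM in ST2-low. The sum over the 15 cholesterol synthesis genes was 269, 295 and 263 CPM in ST2KO, 335, 351 and 305 CPM in ST2-high, and 334, 334 and 339.5 CPM in ST2-low. Cyp51 carried most of this difference, as the other 14 genes summed to 224, 240.2 and 212 CPM in ST2KO, 232, 247 and 213 CPM in ST2-high, and 225, 229 and 235 CPM in ST2-low, where the groups overlapped.

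Exons of 8 of the 38 genes overlap another counted gene in the GENCODE annotation of GRCm38, and without a stated strand setting reads of such pairs cannot be told apart. Besides Acsl3, these are Cyp51 with Akap9, Fdft1 with Ctsb, Srebf1 with Rai1, Elovl1 with Cdc20, Acsl5 with Zdhhc6, Lss with 4930483K19Rik and Scd2 with Mir5114. Akap9, a kinase anchor, was higher in ST2KO by 0.27 against ST2-low and 0.41 against ST2-high (edgeR adjusted p = 0.00266 and 3.3e-05), where Cyp51 was lower. Ctsb, a cathepsin, was lower, at -0.29 and -0.39 (edgeR adjusted p = 2.39e-05 and 2.1e-07), where Fdft1 was higher. Zdhhc6, a palmitoyltransferase, gave 0.21 in ST2KO against ST2-low, 0.032 in ST2KO against ST2-high and 0.17 in ST2-high against ST2-low (edgeR adjusted p = 0.0633, 0.782 and 0.201), close to the values of Acsl5. Cdc20, a cell division gene, gave -0.25, -0.86 and 0.61 in the same comparisons (edgeR adjusted p = 0.14, 3.94e-06 and 0.00118), beside Elovl1, which was not called. Rai1, a chromatin regulator, gave 0.17, 0.37 and -0.20 (edgeR adjusted p = 0.0578, 0.000286 and 0.0621), each with the sign opposite to Srebf1.

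Other genes of sterol and isoprenoid metabolism were read from a separate list. The counts of this and the next 4 lists stand beside all-gene shares of 33.0% higher and 29.3% lower in ST2KO against ST2-low, 31.9% and 32.6% against ST2-high, and 15.3% and 10.8% in ST2-high against ST2-low. Of 12 tested enzymes, 6 were higher and 3 lower in ST2KO against ST2-low, 7 higher and 2 lower against ST2-high, and 1 higher and 2 lower in ST2-high against ST2-low. Sc5d, the sterol desaturase that acts between Ebp and Dhcr7, had 25.7, 27.5 and 25.6 CPM in ST2KO, 47.4, 44.00 and 40.02 CPM in ST2-high and 49.6, 47.7 and 41.2 CPM in ST2-low. Every ST2KO library lay below every wild-type one, and Sc5d was lower in ST2KO, at -0.81 ± 0.081 and -0.75 ± 0.081 (edgeR adjusted p = 4.7e-10 against ST2-low and 2.61e-09 against ST2-high). Fntb, the beta chain of protein farnesyltransferase, was higher in ST2KO, at 17.96 CPM in ST2KO, 8.10 CPM in ST2-high and 8.96 CPM in ST2-low on average, with 1.01 ± 0.13 and 1.18 ± 0.14 (edgeR adjusted p = 1.45e-07 and 9.53e-09). Coq2, of ubiquinone synthesis, was higher than in ST2-high (0.58 ± 0.10, edgeR adjusted p = 9.31e-06), and Ggps1, which makes geranylgeranyl diphosphate, was lower than in ST2-low (-0.40 ± 0.071, edgeR adjusted p = 1.19e-05). Ggps1 was also lower in ST2-high than ST2-low, at -0.30 ± 0.070 (edgeR adjusted p = 0.00166).

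Of 13 other genes of sterol sensing, transport and esterification, 4 were higher and 5 lower in ST2KO against ST2-low, 4 higher and 3 lower against ST2-high, and 2 higher and 2 lower in ST2-high against ST2-low. Mylip, an LXR-induced ubiquitin ligase, had 37.5, 36.3 and 38.1 CPM in ST2KO, 58.8, 60.3 and 61.3 CPM in ST2-high and 80.1, 77.3 and 79.2 CPM in ST2-low. The groups did not overlap, and the log2 fold change was -1.08 ± 0.061 in ST2KO against ST2-low and -0.69 ± 0.062 against ST2-high (edgeR adjusted p = 1.25e-15 and 5.13e-11). Stard4, a sterol carrier and SREBP target, was lower in ST2KO, at -0.51 ± 0.083 and -0.65 ± 0.082 (edgeR adjusted p = 4.5e-06 and 6.09e-08). Soat1, which esterifies cholesterol, was higher in ST2KO than ST2-low by 0.46 ± 0.064 (edgeR adjusted p = 3.02e-07). It was also higher in ST2-high than ST2-low, by 0.29 ± 0.064 (edgeR adjusted p = 0.000902). Rxra, the partner of LXR, was lower in ST2KO than ST2-high, at -0.62 ± 0.070 (edgeR adjusted p = 5.48e-09) and higher in ST2-high than ST2-low by 0.58 ± 0.070 (edgeR adjusted p = 1.22e-07).

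Of 13 other genes of fatty acid synthesis, elongation and activation, 7 were higher and 3 lower in ST2KO against ST2-low, 7 higher and 4 lower against ST2-high, and 2 higher in ST2-high against ST2-low. Acss1, the mitochondrial acetyl-CoA synthetase, had 48.7, 50.8 and 45.8 CPM in ST2KO, 27.6, 30.8 and 36.1 CPM in ST2-high and 33.02, 31.1 and 28.8 CPM in ST2-low. ST2KO lay above both wild-type groups, by 0.65 ± 0.084 and 0.64 ± 0.084 (edgeR adjusted p = 9.18e-08 and 1.22e-07). Mcat and Oxsm, of mitochondrial fatty acid synthesis, were higher in ST2KO than ST2-low by 0.81 ± 0.17 and 0.90 ± 0.14 (edgeR adjusted p = 0.000146 and 1.61e-06), and Slc25a1, the mitochondrial citrate carrier, was lower than in ST2-high, at -0.60 ± 0.11 (edgeR adjusted p = 1.79e-05). Oxsm was also higher in ST2-high than ST2-low, by 0.38 ± 0.14 (edgeR adjusted p = 0.049). Elovl4, an elongase of very long chains, was under the level asked for in these lists and is named after its values were seen. It had 0.326, 0.468 and 0.245 CPM in ST2KO, 2.44, 2.72 and 1.91 CPM in ST2-high and 2.81, 2.32 and 3.12 CPM in ST2-low. The ST2KO levels rest on 15, 8 and 3 counts, near the floor, and Elovl4 passed the filter through the wild-type libraries. Its log2 fold changes in ST2KO, -2.97 ± 0.36 and -2.75 ± 0.36, are therefore given as description only.

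Of 16 genes of fatty acid oxidation, 6 (37.5%) were higher and 5 (31.2%) lower in ST2KO against ST2-low, shares near those of all genes. Against ST2-high, 2 were higher and 8 lower in ST2KO, and 4 were higher in ST2-high against ST2-low. Acadl, the long-chain acyl-CoA dehydrogenase, had 15.3, 13.7 and 14.6 CPM in ST2KO, 39.6, 40.9 and 44.5 CPM in ST2-high and 35.02, 33.3 and 34.5 CPM in ST2-low. ST2KO lay far below both, at -1.23 ± 0.084 and -1.51 ± 0.083 (edgeR adjusted p = 9.97e-14 and 5.02e-16). Hadhb, a subunit of the trifunctional protein, was lower, at -0.72 ± 0.064 and -0.66 ± 0.064 (edgeR adjusted p = 4.64e-11 and 3.11e-10), whereas Cpt2, the inner-membrane carnitine palmitoyltransferase, was higher by 1.47 ± 0.19 and 1.32 ± 0.18 (edgeR adjusted p = 5.11e-08 and 2.42e-07). Between the wild-type groups, Hadh, which oxidizes hydroxyacyl-CoA, was higher in ST2-high (0.51 ± 0.090, edgeR adjusted p = 5e-05), as were Acads, the short-chain dehydrogenase (0.34 ± 0.090, edgeR adjusted p = 0.00464), and Slc25a20, the acylcarnitine carrier (0.38 ± 0.10, edgeR adjusted p = 0.00611).

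Of 8 genes of triglyceride synthesis, droplets and lipolysis, 2 were higher and 4 lower in ST2KO against ST2-low, 3 higher and 4 lower against ST2-high, and 2 higher and 1 lower in ST2-high against ST2-low. Dgat2, which carries out the same reaction as Dgat1 from an unrelated protein family, had 2.58, 3.45 and 2.70 CPM in ST2KO, 57.3, 45.05 and 56.04 CPM in ST2-high and 22.5, 21.02 and 21.1 CPM in ST2-low. The 3 groups were far apart and stood in the order of Dgat1, lowest in ST2KO and highest in ST2-high. Dgat2 was lower in ST2KO, at -2.93 ± 0.13 and -4.22 ± 0.12 (edgeR adjusted p = 3.93e-18 against ST2-low and 8.76e-23 against ST2-high) and higher in ST2-high than ST2-low by 1.30 ± 0.093 (edgeR adjusted p = 3.23e-12). Pnpla2, the lipase that starts triglyceride breakdown, was lower in ST2KO, at -0.65 ± 0.073 and -0.68 ± 0.073 (edgeR adjusted p = 5.73e-09 and 2.26e-09). Lpin1, a phosphatidate phosphatase, was lower than in ST2-low, at -0.53 ± 0.061 (edgeR adjusted p = 1.12e-08), and Lpin2 was lower than in ST2-high, at -0.41 ± 0.059 (edgeR adjusted p = 6.35e-07). Between the wild-type groups, Lpin1 was lower and Lpin2 higher in ST2-high, at -0.16 ± 0.061 and 0.17 ± 0.059 (edgeR adjusted p = 0.0444 and 0.0295).

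**Figure D4:**
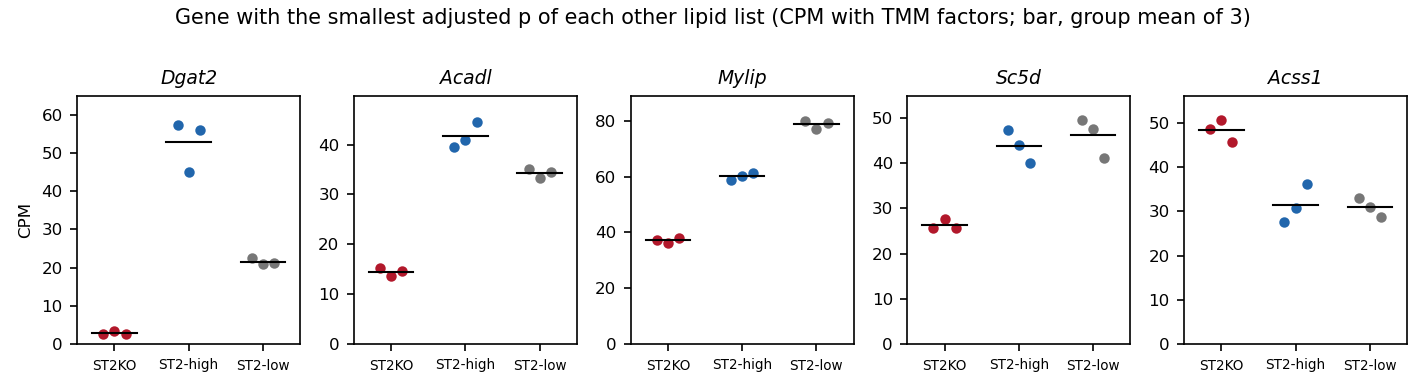
Level in CPM, from 0, of the gene with the smallest adjusted p of each of the 5 other lipid lists, by group, with 3 libraries as points and their mean as a bar. Dgat2, Acadl, Mylip and Sc5d lie lowest in ST2KO and Acss1 lies highest there.

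**Figure D5:**
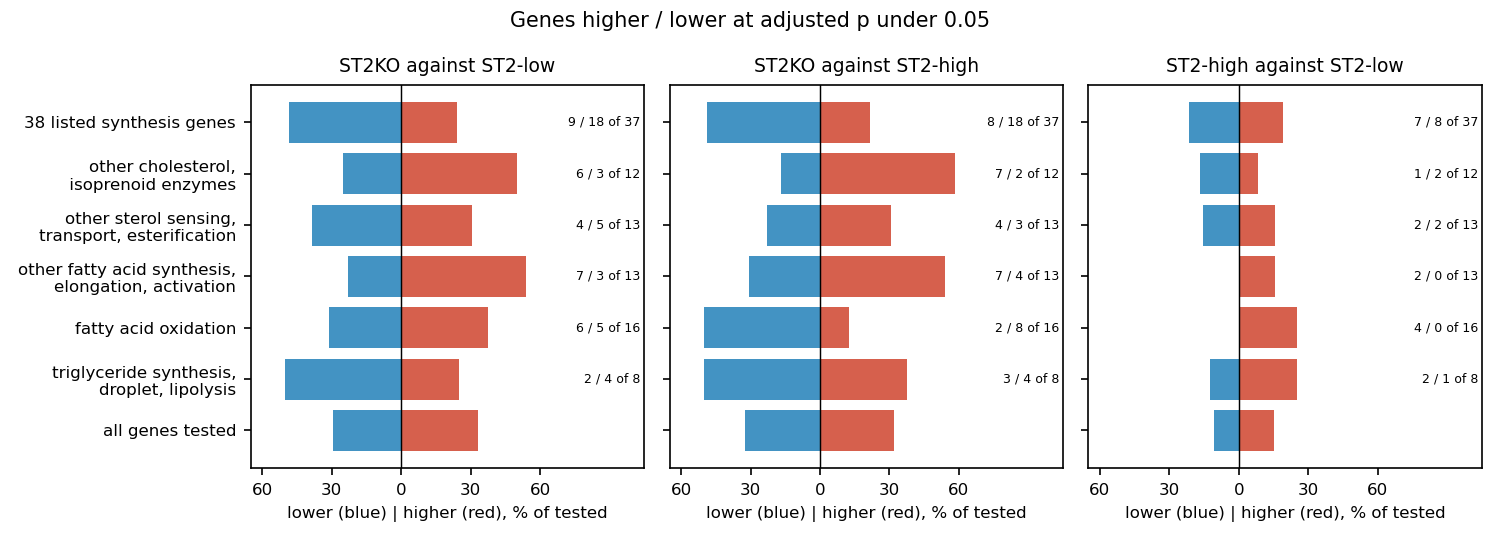
Bars give the percentage of tested genes of each list that were higher (right, red) or lower (left, blue) at an edgeR adjusted p under 0.05, in 1 panel per comparison, with the counts at the right. The bottom bar gives all 12219 genes, of which 33.0% were higher and 29.3% lower in ST2KO against ST2-low, beside 9 and 18 of the 37 listed synthesis genes tested.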

How the data were processed

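RNA of 9 libraries of sorted mouse Tregs was measured as whole-number read counts per gene, as deposited by the authors in 1 table per library. Aligner, counter, genome build and strand setting were not given in the sources used here, nor was how reads were treated that match closely related copies such as Scd1 and Scd2 or pseudogenes, as of Fdps. Total counts ran from 11659659 to 43406680. Of these, 27 rows whose symbols had become dates, with 0.182% to 0.206% of counts, were left out, and the ribosomal RNA gene Rn45s held 12.1% to 16.9%.

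Groups came from the genotype labels. All 9 libraries were fitted in edgeR 4.0.16 (R 4.3.3) with filterByExpr (minimum count 10, minimum total 15), TMM factors and robust quasi-likelihood fits, and called at a Benjamini-Hochberg adjusted p under 0.05 over 12219 genes. The steps were checked on simulated counts in which few genes changed. That check does not cover scaling where most genes differ, and most genes were called in the ST2KO comparisons. Genes described with every library's value were called, changed by 1.5-fold or more, and reached 5 CPM in at least 1 group. In each of the 5 other lipid lists, values were given for genes among the 3 with the smallest adjusted p in a comparison and at least 5 CPM in the higher group. The 38 genes, the other lists and the markers were chosen with earlier results of these data known. Alternatives were upper-quartile normalization, DESeq2 size factors, limma-voom (limma 3.58.1) and DESeq2 1.42.0 as tests, no filter, 5 CPM in 3 libraries, only the 6 libraries compared, a minimum fold of 1.5, a replicate block, Rn45s left out, and each library left out.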

Additional observations from a re-analysis of the deposited data

How the results depend on the processing

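Of 2109 values of the 37 tested genes over all alternatives, 1965 kept their side of the threshold, 116 lost the call and 28 gained one. The sign differed from the value reported in 66, each of a comparison in which the gene was not called, and in 0 where it was called. Leaving aside the minimum fold, 56 of 68 calls held under every alternative run: 23 of 27 in ST2KO against ST2-low, 23 of 26 in ST2KO against ST2-high and 10 of 15 in ST2-high against ST2-low. When a change had to exceed 1.5-fold, the numbers of genes higher and lower became 0 and 6 (ST2KO against ST2-low), 1 and 6 (ST2KO against ST2-high) and 0 and 0 (ST2-high against ST2-low), since a larger change was asked for. Of all 12219 genes, 1025 and 1086, 1027 and 1351, and 335 and 12 were then called, in the same order. Leaving out 1 library at a time gave 6 to 10 higher and 18 to 19 lower in ST2KO against ST2-low, 7 to 8 higher and 17 to 21 lower in ST2KO against ST2-high, and 5 to 9 higher and 6 to 8 lower in ST2-high against ST2-low. Over all genes, 12367 to 12438 of them tested, the same runs gave 3525 to 4061 higher and 3321 to 3900 lower in the first comparison. In the second they gave 3328 to 3893 higher and 3696 to 4178 lower, and in the third 1521 to 1913 higher and 957 to 1398 lower. With a replicate block the counts were 9 and 19, 8 and 19, and 8 and 8 in the same order of comparisons. Over all 12219 genes they were 4039 and 3583, 3894 and 3991, and 1875 and 1335. Deviations from the group means correlated at -0.0626 to 0.0984 between libraries with the same number, and at -0.114 to 0.0732 between those with different numbers. The highest, 0.0984, was between replicate 1 of ST2-high and of ST2-low. These values cannot show whether libraries were paired, since deviations from means of 3 also hold count noise. The numbers were not taken as pairs. The all-gene shares depend on the scaling. With upper-quartile normalization 12 and 17, 9 and 16, and 6 and 8 of the 37 genes were higher and lower, in the same order of comparisons. Of all genes, 4648 and 3124, 4582 and 3443, and 1801 and 1419 were. DESeq2 size factors gave 7 and 19, 8 and 18, and 5 and 8 of the 37 genes. Of all genes they gave 3729 and 3829, 3793 and 4075, and 1691 and 1612. Depth limits the genes with low levels most: Pmvk and Idi1 had 59 and 50 counts in the shallowest library.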
